A study of Drosophila melanogaster with 18 samples.

Results

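In stretches of the fly genome marked out by the listed sites of a small screen of bacterial artificial chromosome (BAC) DNA, 250 transcription initiation sites of the genome-wide screen had no counterpart at the same base and strand in the BAC list. They were 38.1% (Wilson 95% interval 34.5 to 41.9) of the 656 genome-wide sites in these stretches and 1.89% of the 13218 sites of the genome-wide list. The remaining 406 sites were in both lists. The sites were chosen by presence in 1 list and absence from the other. These 2 facts, and the counts that follow from them directly, are therefore descriptions and not findings. The BAC list (753 sites) was first joined into 34 BAC regions, each a stretch of at least 2 BAC sites, counted on both strands, that no gap above 60 kb breaks and that runs from its first to its last site. Genome-wide sites inside a region with no BAC site at the same position and strand were kept.

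Both screens used STAP-seq in S2 cells, an embryonic Drosophila melanogaster line with properties of blood cells. Sheared DNA of about 100 to 250 bp, taken either from embryos of the strain y; cn bw sp or from BACs, was cloned into a reporter plasmid that held the zfh1 enhancer or none, and the 5′ ends of the reporter transcripts were sequenced. The labels name the genome-wide list for 2 samples with the zfh1 enhancer and 2 samples without an enhancer, and the BAC list for 3 samples with the zfh1 enhancer and 1 sample without one. Each list is 1 set of single-base positions in dm3 with a strand and a serial number, and holds no read count, level or value per sample. Depth is therefore unknown, replicate spread has no value here, and absence from the BAC list cannot be read as absence of initiation. Sites are not replicates, so differences between sets of sites are given with intervals that cover counting error only, and no test was made.

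A core promoter is the short stretch of DNA around a transcription start that suffices to direct RNA polymerase II to begin there. In flies some promoters start transcription at a sharply fixed base, often with motifs such as the TATA box, the initiator or the downstream promoter element. Others spread their starts over a wider stretch. An enhancer such as that of zfh1, which encodes a zinc finger and homeodomain transcription factor, raises the output of promoters that respond to it. In a reporter assay the fragment alone supplies the promoter, away from its own chromosome.

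The absent sites fell into 3 kinds by the distance to the nearest BAC site on the same strand. For 54 of them (21.6%, 16.9 to 27.1) a BAC site lay 1 to 5 bp away, a share that was 33.6% (26.5 to 41.5) without the 25% of genome-wide sites with the highest serial numbers. For 21 (8.40%, 5.56 to 12.5) the nearest one was 6 to 50 bp away. For 175 (70%, 64.1 to 75.3) there was none within 50 bp. At distances above 100 and up to 1000 bp there were 3 sites up to 250 bp and 8 beyond it. A further 73 sites had their nearest BAC site above 1000 and up to 5000 bp away and 58 above 5000 and up to 20000 bp away. The median distance was 1988 bp over all absent sites and 4277 bp over the 175. The plot of distances shows these classes, which are of unequal width, so their counts do not show a gap in distance. BAC sites on the opposite strand are left out of these distances.

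**Figure D1:**
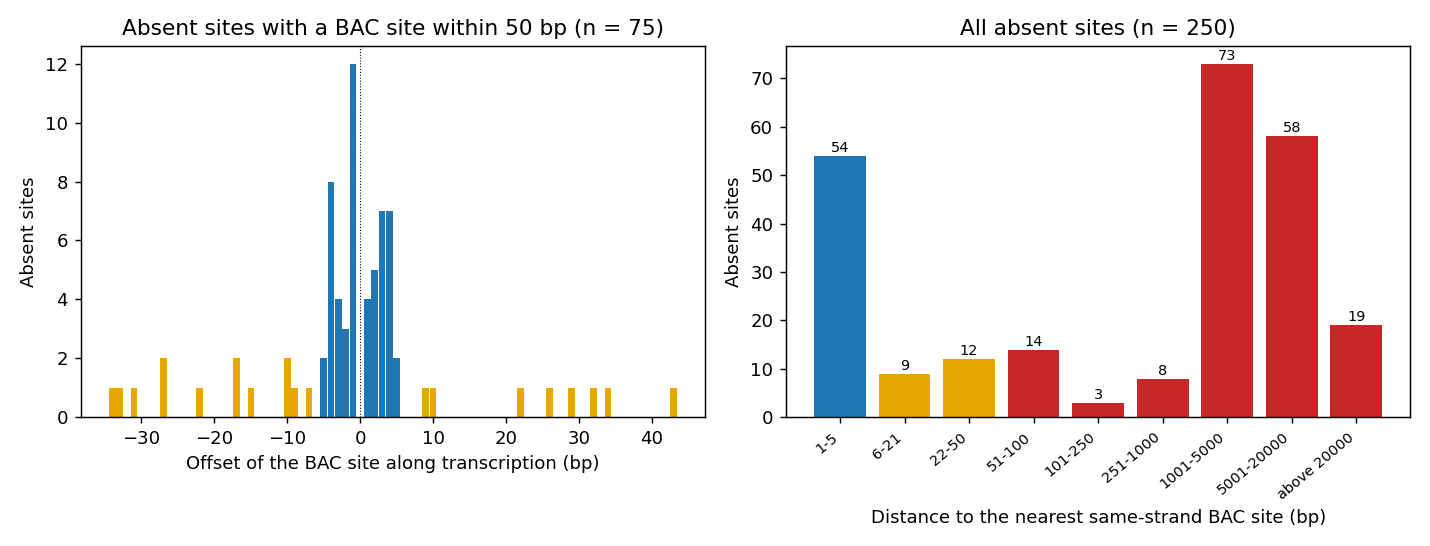
Left, number of absent sites (y axis) at each offset in bp (x axis) of the nearest same-strand BAC site along the direction of transcription, for the 75 absent sites with one within 50 bp; negative offsets are upstream, blue marks 1 to 5 bp and yellow 6 to 50 bp. Right, number of the 250 absent sites in each class of distance, with 54 at 1 to 5 bp and 175 (red) beyond 50 bp.

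The 54 sites with a BAC site 1 to 5 bp away were the counterparts of 54 sites of the BAC list alone, which are 15.6% of the 347 such BAC sites. The BAC site lay upstream of the genome-wide site at 29 of them and downstream at 25 (46.3% downstream, 33.7 to 59.4). An offset of 1 bp was seen at 16 sites, with the BAC site upstream at 12 and downstream at 4. At 2 bp there were 3 upstream and 5 downstream, at 3 bp 4 and 7, at 4 bp 8 and 7, and at 5 bp 2 and 2. Offsets to both sides occurred at each size, and the interval of the downstream share holds an equal split. At 7 of the 10 absent sites with the lowest serial numbers the difference between the lists was of this kind. They lay on 2R at 20181626 (number 1397, offset -1 bp), 3R at 2758563 (1534, 4 bp), 3R at 12840295 (1815, 3 bp), 2R at 5866822 (1835, 2 bp), 2L at 16496767 (2049, 4 bp), 2R at 20230392 (2134, -3 bp) and 2R at 7140918 (2168, -1 bp). The 3R site at 2758563 and the 2R site at 7140918 were on the minus strand and the other 5 on the plus strand.

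The BAC sites paired with these 54 carried low serial numbers too. Each list numbers its sites from 1 up, to 13218 genome-wide and to 753 for the BACs. What set this order is not stated in the labels or files. The median BAC number was 91.5 (95% interval of the median 42 to 142) at the 54 partners, 286.5 (257 to 314) at the 406 BAC sites shared at the same base, and 504 (467 to 537) at the 347 sites of the BAC list alone. The 347 include the 54 partners. At the 282 of them that were not the nearest BAC site of an absent site within 50 bp it was 546.5 (523 to 577). Of the 10 lowest-numbered BAC sites 4 were shared at the same base and 6 had an absent genome-wide site 1 to 5 bp away. Of the lowest 50 these were 26 and 22, and 2 had neither. Over the whole BAC list 406 of the 753 sites were shared and 54 had an absent site 1 to 5 bp away. The 26 of 50 are thus near the shared part of the whole list, and the 22 of 50 are above the part with an absent site. Most BAC sites with the lowest numbers were thus present in the genome-wide list within 5 bp, many of them a few bases off. Over the 54 pairs the numbers of the lists had a Pearson correlation of 0.71 and a Spearman correlation of 0.50. At the 406 same-base pairs these were 0.59 and 0.63. These are correlations across sites, which share the 2 lists and are not independent.

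**Figure D2:**
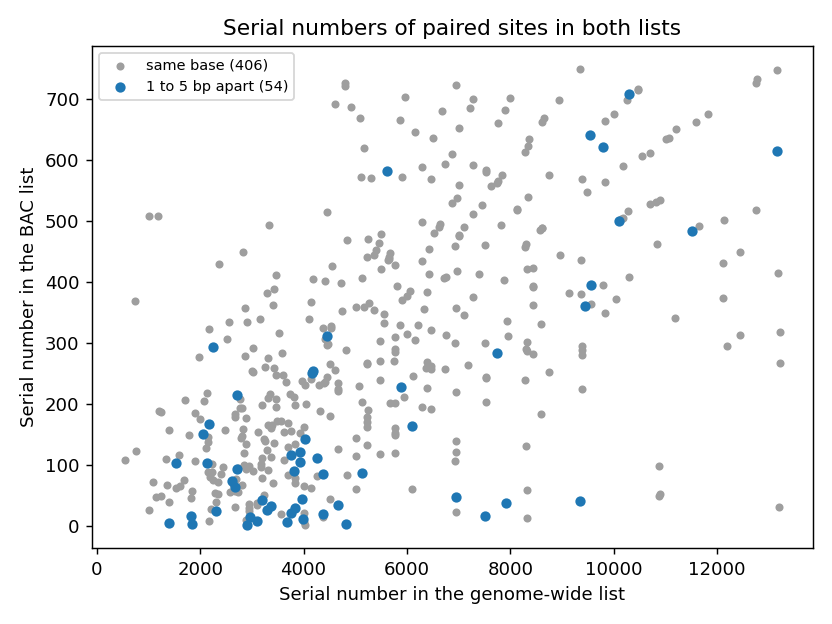
Serial number in the BAC list (y axis) against serial number in the genome-wide list (x axis) for the 406 sites at the same base (grey) and the 54 pairs 1 to 5 bp apart (blue). The blue points gather at low numbers in both lists, with a median BAC number of 91.5.

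The 21 sites at 6 to 50 bp were of mixed make-up. At 9 of them the BAC site lay 6 to 21 bp away, and at 12 it lay 22 to 50 bp away. For 9 of the 12 that BAC site was itself matched at its own base by another genome-wide site, so the absent site was an additional start beside a shared one. In all, 66 of the 75 absent sites with a BAC site within 50 bp had one of the BAC list alone as the nearest. The 21 sites had a median serial number of 7619 (6094 to 9344), between those of the other 2 kinds.

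Of the 175 sites with no same-strand BAC site within 50 bp, 36 had a BAC site on either strand within 250 bp, the upper end of the fragment size, 25 had the nearest one beyond that but within 1000 bp, and 114 had none within 1000 bp. The 114 were 45.6% (39.5 to 51.8) of all absent sites. At 88 of the 114 no other genome-wide site lay within 1000 bp either, so these were single starts with no listed neighbour in either screen. The lowest-numbered of the 175 was on the plus strand of 2L at 5108536 (number 1153), which was also the lowest number of all absent sites. Its nearest same-strand BAC site was 7681 bp upstream. Next came 2L at 5151727 (plus strand, number 1648), 9095 bp from a BAC site, and 3R at 10962725 (minus strand, 2040), 5079 bp from one. The next 3 lay on 2R at 7079701 (3212), 3R at 10993033 (3597) and 2L at 19398409 (3852), all on the minus strand. The distances to a same-strand BAC site were 40305, 35387 and 82 bp. The last 4 of the 10 lay on the plus strand, on 2L at 19540635 (4385), 3R at 11803077 (4458), 2L at 19487492 (4526) and 2L at 5309160 (4534).

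Serial numbers were low in one of the main kinds of absent site and high in the other. The median number was 3979 (3681 to 4449) at the 54 sites with a BAC site 1 to 5 bp away and 10254 (9555 to 10501) at the 175 with none within 50 bp. It was 5245.5 (4845 to 5755) at the 406 shared sites and 6609.5 in the whole genome-wide list. For all 250 absent sites together it was 9096.5 (8299 to 9547), a value that mixes these kinds. In the lowest 25% of the list's numbers lay 33.3% (22.2 to 46.6) of the 54 and 2.29% (0.892 to 5.73) of the 175, against 24.9% (20.9 to 29.3) of the shared sites, an interval that overlaps that of the 54. In the highest 25% lay 7.41% (2.92 to 17.6) of the 54 and 54.3% (46.9 to 61.5) of the 175, against 9.85% (7.32 to 13.1) of the shared sites. That sites with high numbers were less often shared was known before these sets were formed. Split by kind, the median was higher than that of the shared sites where no same-strand BAC site lay within 50 bp. It was lower where one lay 1 to 5 bp away. Neither median's interval overlaps that of the shared sites. By the share in the lowest 25% of numbers the sites a few bases off and the shared sites were not separated. These differences were not tested.

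**Figure D3:**
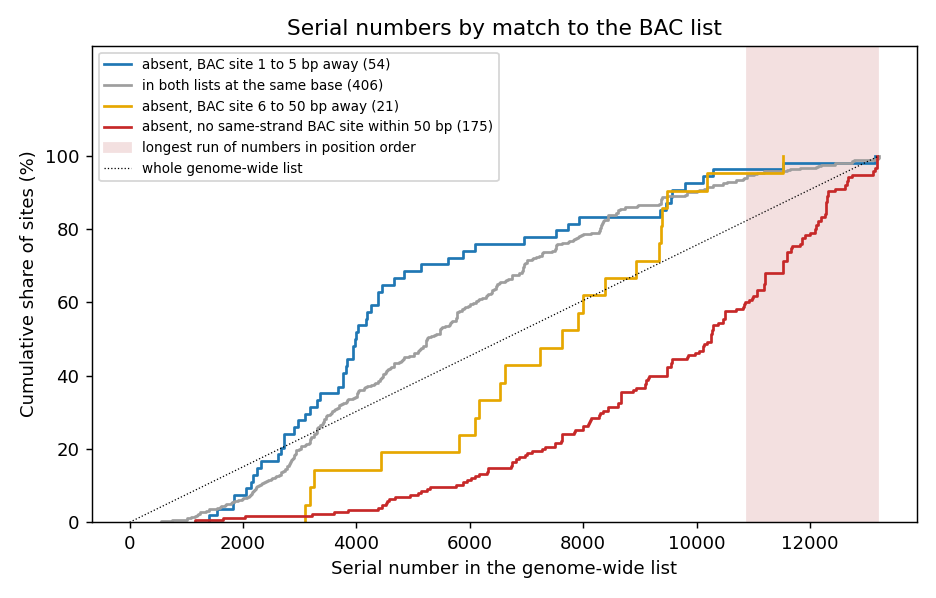
Cumulative share of sites in percent (y axis) against the serial number in the genome-wide list (x axis) for the 54, 21 and 175 absent sites of each kind and the 406 shared sites; the dotted line is the whole genome-wide list. The shaded band is the longest run of numbers that follow position, 10889 to 13206, which holds 40% of the 175 and 3.70% of the 54.

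The same order of medians was seen in each arm. At the shared sites the medians were 5034.5 on 2L, 4669 on 2R, 5766.5 on 3L, 5172 on 3R and 6866 on X. In each arm their interval overlapped that of the sites with a BAC site 1 to 5 bp away. The medians of the 1 to 5 bp kind and of the kind with no BAC site within 50 bp were 4203 and 9484.5 on 2L, 3572 and 9852 on 2R, 4082 and 11830 on 3L, 3747.5 and 10264 on 3R, and 5014.5 and 10846.5 on X. The first kind had only 6 to 14 sites per arm, and on 2L, with 10, and X, with 6, the intervals of its median were wide (2612 to 9547 and 2670 to 13151) and overlapped those of the other kind. In 6 equal bins of the numbers, 74.4% (64.6 to 82.3) of the genome-wide sites numbered 11016 to 13218 were absent with no BAC site within 50 bp, against 2.58% (1.01 to 6.45) in numbers 2204 to 4406. The 1 to 5 bp kind made up 17.4% (12.3 to 24.2) of the sites numbered 2204 to 4406 and 2.22% (0.612 to 7.74) of those numbered 11016 to 13218. These were its highest and lowest shares among the bins. Each share is of all genome-wide sites of the bin in the regions, so it is lowered where the other kind is frequent. From the first bin to the last this kind had 7, 27, 7, 4, 7 and 2 sites, beside 36, 121, 109, 83, 37 and 20 shared sites. Set against the shared sites, it thus showed no steady fall along the numbers.

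**Figure D4:**
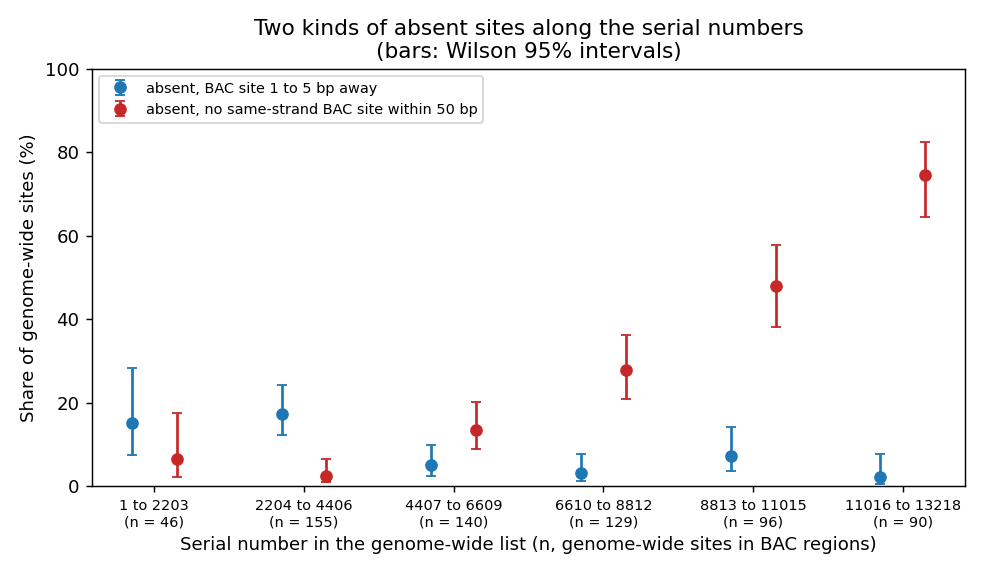
Share in percent (y axis) of the genome-wide sites in BAC regions that were absent with a BAC site 1 to 5 bp away (blue) or with none on the same strand within 50 bp (red), in 6 equal bins of the serial number (x axis, 46 to 155 sites each); bars are Wilson 95% intervals. The red share reaches 74.4% in the last bin and the blue share 17.4% in the second.

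Long runs of numbers follow position along the chromosomes, so numbers within a run have an order set by place. The longest run held the numbers 10889 to 13206. In it lay 70 of the 175 sites with no BAC site within 50 bp (40%, 33.0 to 47.4), 2 of the 54 with a BAC site 1 to 5 bp away, 18 of the 406 shared sites (4.43%, 2.82 to 6.90), and 17.5% of the whole list. The 5 absent sites with the highest numbers, 13180 and 13182 to 13185, all lay on X between 9509944 and 9623300, and X comes late in the text order that the run follows. Their place at the end of the list is for this reason no measure of how they differ from the other 65 in the run.

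Per 100 kb, the absent sites with no BAC site within 50 bp were no denser in the long stretches without BAC sites than elsewhere in the regions. Within the regions 51 gaps of the BAC list exceeded 20 kb and covered 1.60 Mb, or 32.6% of the 4.90 Mb. By construction no site inside such a gap can be shared. The gaps held 48 of the 250 absent sites (19.2%, 14.8 to 24.5). Of the 175 sites the gaps held 42, 2.63 per 100 kb (exact Poisson 95% interval 1.89 to 3.55). The rest of the regions held 133, or 4.03 per 100 kb (3.37 to 4.77). As a part of the genome-wide sites, this kind made up 42 of 48 in the gaps and 175 of 656 (26.7%) in all regions. That contrast follows in part from the construction, and the rates per 100 kb do not speak to it. Of the 10 lowest-numbered of these sites 5 lay in gaps above 20 kb, against 24% (18.3 to 30.8) of all 175. So few sites cannot show a difference. The widest gap with an absent site, 59.967 kb on 2L from 5100855 to 5160822, held 5 of them, among them the numbers 1153 and 1648. Whether a BAC covers each gap is not known here.

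Close neighbours within the genome-wide list were about as common at absent as at shared sites. Another genome-wide site lay within 100 bp on the same strand at 41 of the 250 absent sites (16.4%, 12.3 to 21.5) and at 15% (11.9 to 18.8) of the shared ones. On the opposite strand within 250 bp there was one at 46 (18.4%, 14.1 to 23.7) and at 14% (11 to 17.8). No genome-wide neighbour within 1000 bp was found for 54.4% (48.2 to 60.5) and 57.6% (52.8 to 62.3). All 3 pairs of intervals overlap. By kind, a same-strand neighbour within 100 bp was listed for 7.41% (2.92 to 17.6) of the 54 sites with a BAC site 1 to 5 bp away, 57.1% (36.5 to 75.5) of the 21 at 6 to 50 bp and 14.3% (9.87 to 20.2) of the 175. The interval of the 21 lies above that of the shared sites, and in 9 of its sites the nearest BAC site is itself matched by a genome-wide site within 50 bp. Of the 175 sites, 13 lay within 250 bp of a shared site on the same strand and 14 of one on the opposite strand, 26 sites in all, which is close enough for 1 fragment to hold both. The absent site had the higher number of the pair at 10 of the 13 and at 11 of the 14. The 175 sites and the shared sites already differ in this direction, with median numbers of 10254 and 5245.5. These counts can therefore not be read as particular to neighbouring sites. At the 14 opposite-strand pairs, 8 were divergent, with the 2 starts pointing away from each other, and 6 convergent.

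Most absent sites stood alone among themselves. Joined by gaps of at most 250 bp on either strand, the 250 sites made 225 groups, of which 201 held a single site, 23 held 2 and 1 held 3. The group of 3 lay on 3R from 10962629 to 10962871 with the numbers 10248, 2040 and 4945, the first pair on the minus and the last on the plus strand. No BAC site lay within 250 bp of it. The tightest pairs lay on 3L from 3907517 to 3907524, with numbers 10112 and 12110, and on 2R from 7092118 to 7092134, with numbers 11675 and 2247. In both pairs the sites were on opposite strands.

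Absent sites occurred in 33 of the 34 regions, with a median of 6 and at most 23 per region, and at 5.10 per 100 kb (4.49 to 5.77) over all. Sites of the 1 to 5 bp kind were found in 22 regions and sites with no BAC site within 50 bp in 33. The regions with the most were on 2L from 4945728 to 5320796 with 23 of 52 genome-wide sites, on 2L from 19380908 to 19549735 with 16 of 33, and on 3R from 11787697 to 11954451 with 16 of 38. They were followed by 2R from 20161377 to 20304845, with 15 of 35, and 3R from 2674226 to 3021497, with 15 of 33. Together these 5 regions held 85 absent sites, 34%. Among the 31 regions with at least 5 genome-wide sites the absent share had a median of 37.5% and ran from 14.3% on X (15604695 to 15784995, 2 of 14) to 76.9% on 3R (10957646 to 11032165, 10 of 13, 49.7 to 91.8). The region without an absent site, on 3L from 1098783 to 1101104, was 2.32 kb long and held 3 genome-wide sites.

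**Figure D5:**
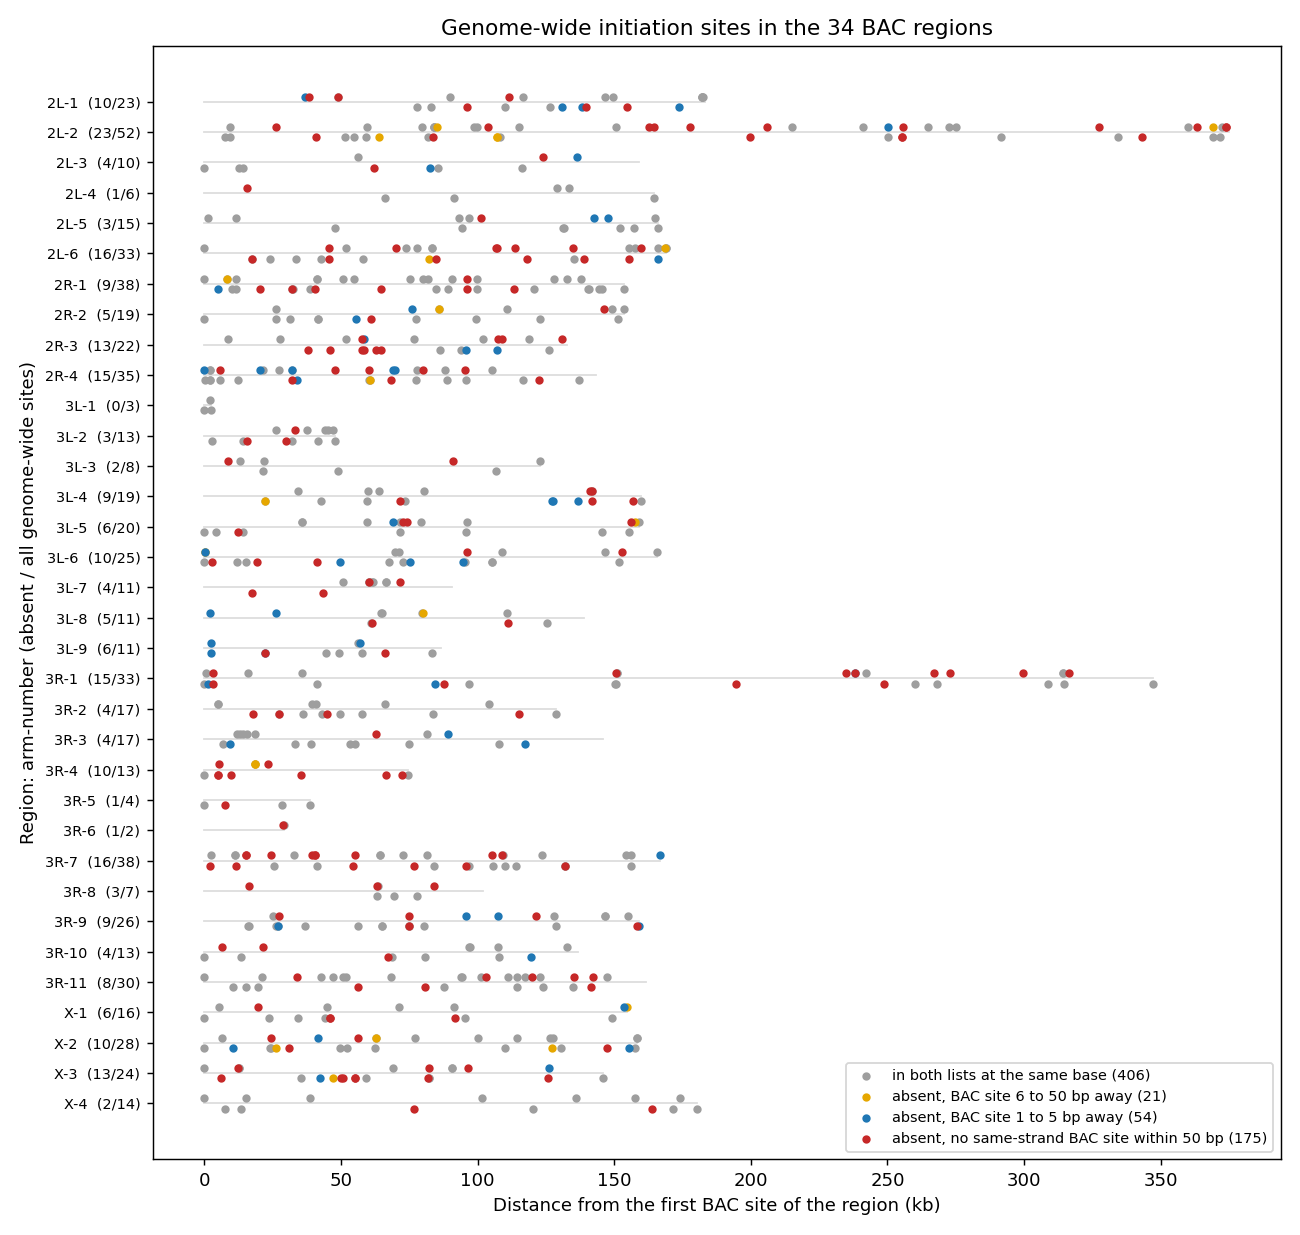
Genome-wide sites in the 34 BAC regions, 1 row per region (y axis, arm and number along the arm, with absent and all genome-wide sites in brackets), by distance in kb from the region's first BAC site (x axis); points above a line are on the plus strand and points below it on the minus strand. Grey sites are in both lists, and the coloured absent sites occur in every region except 3L-1.

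The 3R region from 10957646 to 11032165 had the highest absent share. Its interval (49.7 to 91.8) overlaps those of many regions. It lies above those of some others, such as X from 15604695 to 15784995 (4.01 to 39.9), and above the 38.1% of all regions together. With 3 BAC sites for 13 genome-wide sites, the 3R region could have at most 3 shared sites. Its absent share was thus the lowest that its count of BAC sites allows. The X region had 20 BAC sites for 14 genome-wide sites, so no such limit applied there. The intervals therefore do not compare like with like. The 3R region was picked for its high share, and the difference was not tested. All 3 of its BAC sites were shared, at 10957646 (genome-wide number 1187, BAC number 508), 10976082 (1010 and 509) and 11032165 (5646 and 438). None of its 10 absent sites had a BAC site within 5 bp, 2 had one within 50 bp and 8 had none, with numbers from 2040 to 12265. The region spans 2 gaps of 18.436 and 56.083 kb in the BAC list, and the larger one lies close to the 60 kb limit of the rule. Without this region 240 absent sites were left and their share was 37.3%.

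In the absent share no arm stood apart beyond its interval, and the 2 strands were equal. The absent share was 41.0% (33.2 to 49.3) on 2L with 57 sites, 36.8% (28.6 to 46.0) on 2R with 42, 37.2% (29.1 to 46.1) on 3L with 45, 37.5% (31.1 to 44.4) on 3R with 75 and 37.8% (28.1 to 48.6) on X with 31. All 5 intervals overlap. The kind with no BAC site within 50 bp made up 60% (45.5 to 73.0) of the absent sites on 3L and 81.3% (71.1 to 88.5) on 3R. These were the lowest and the highest share among the arms. Their intervals overlap, but that of 3R lies above the 70% of all absent sites, which include those on 3R. This difference was not tested. Of the 250 sites 125 were on the plus and 125 on the minus strand (50% plus, 43.8 to 56.2), and the 406 shared sites had 203 on each.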

How the data were processed

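Sites were taken from 2 deposited lists, which give for each site its chromosome, position, strand and a numbered name. Per the submitters' processing notes positions refer to dm3. The notes also list Bowtie 0.12.9 and CASAVA 1.9.1, with no role. The sources used here do not say how the authors called, filtered, merged, numbered or pooled the deposited positions. Positions (the other unit of the deposited files) are printed 1-based. No genome or annotation of dm3 was used, so sites carry no gene name and no sequence is shown. The labels describe 18 samples in 9 groups; 10 samples were not analysed here.

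The members, the sets and the rules for naming sites were set with earlier results of these data known. Named are the 10 absent sites with the lowest numbers and the 5 with the highest, the 10 lowest among those with no same-strand BAC site within 50 bp, the 5 regions with the most absent sites, regions with none or with at least 60% of 5 or more, the 3 largest groups (ties by span) and the widest BAC-list gap. The X region with the lowest share was named after its value was seen. Distances are to the nearest BAC site on the same strand unless stated. Shares have Wilson and rates exact Poisson 95% intervals, and medians have distribution-free 95% intervals. Runs are stretches of consecutive numbers in which sites come in ascending text order of chromosome and start, listed from 40 sites up. Values were computed with pandas 2.3.3, scipy 1.17.1 and numpy 2.4.6 in Python 3.11.15 and drawn with matplotlib 3.10.9. The assignment of sites was tested on simulated data.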

Additional observations from a re-analysis of the deposited data

How the results depend on the processing

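No paired analysis was possible because neither list has values per sample, so no replicate could be left out either. Of 73 alternative values for 10 results, 60 stayed within the interval of the value reported (counts, within 1.5 times of it) and 13 did not. The absent share of 38.1% became 29.9% when a BAC site within 5 bp also counted as a match, 26.7% with 50 bp, 28.9% without the 25% of genome-wide sites with the highest numbers, and 33.2% without sites in BAC-list gaps above 20 kb. The median number rose from 9096.5 to 9840 with 5 bp and 10254 with 50 bp, and was 6526 without the highest-numbered 25%, which by construction removes high numbers. The rate per 100 kb fell from 5.10 to 3.997 and 3.57 with 5 and 50 bp. Without the highest-numbered 25%, 33.6% of the absent sites had a BAC site 1 to 5 bp away, 53.7% had none within 50 bp, and 13.4% had an opposite-strand genome-wide neighbour within 250 bp, and the cause of the last was not tested. Joining regions at 40 kb gave 43 regions and lowered the share of absent sites in gaps above 20 kb from 19.2% to 11%, since gaps above 40 kb then fall outside the regions. Leaving out the 3R region or the sites in long gaps was chosen after seeing the data. Each region ends at a BAC site, and 51 genome-wide sites within 10 kb outside an end were not counted. Depth is unknown, so how many absent sites lie near a detection limit was not tested.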

Other observations

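On 3R from 10957646 to 11032165, the region with the highest absent share among those with at least 5 genome-wide sites, the 3 shared sites had a median genome-wide number of 1187 and a median BAC number of 508, a region described after its values were seen and not tested. Of the 8 shared sites with a genome-wide number up to 1187, 2 lie in this region with BAC numbers 508 and 509, and the other 6 had BAC numbers from 26 to 369 with a median of 90.5. On 3R from 6109970 to 6238588, where 4 of 17 genome-wide sites were absent (23.5%), the median BAC number of the shared sites was 518. This region too was picked after its values were seen. Whether BAC numbers and absent shares go together across regions was not tested.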
